A study of Danio rerio with 18 samples.

Results

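The STAT genes encode the transcription factors of JAK/STAT signalling, and the zebrafish gene tables of this study hold 8 of them, taken by gene name from 25281 genes. Described here are 6: stat2, stat3, stat4, stat5a, stat5b and stat6. RNA was sequenced from retinal ganglion cells, the neurons whose axons form the optic nerve, sorted from eyes of isl2b:GFP zebrafish aged 3 to 5 months. The transgene places green fluorescent protein under the promoter of isl2b, and 1000 fluorescent cells went into each library, so the libraries are only as pure as that reporter and the sort. Injured libraries came from eyes collected 6, 12 and 24 hours after the optic nerve was cut (hours post injury, hpi). Control libraries came from uninjured opposite eyes at the same times. Each of the 6 groups had 3 libraries, and all fish carried the reporter. The labels mention 5 replicates per time point, of which 3 per group were analysed here.

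STAT proteins wait in the cytoplasm. When a cytokine binds its receptor, receptor-bound Janus kinases phosphorylate a STAT, which pairs up, enters the nucleus and switches on genes that include SOCS genes, whose products shut the receptor down again. STAT3 serves cytokines of the interleukin-6 family, STAT2 serves interferons, STAT4 serves interleukin-12, the STAT5 pair serves growth hormone, prolactin and related cytokines, and STAT6 serves interleukin-4; these roles are known mainly from mammals. In fish and mammals alike, Stat3 has been studied as part of the response of retinal cells to injury. STAT activity depends on phosphorylation, and RNA levels do not measure it.

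The sorted libraries differed in the RNA of ganglion cell markers. Total counts ran from 15490375 to 28329194 per library. The ganglion cell score, the mean log2 CPM (counts scaled to library size) of the ganglion cell markers tested, ran from 4.38 to 5.53 in injured libraries and from 5.89 to 6.26 in control libraries at 24 hpi. At 6 hpi it ran from 4.12 to 5.95 in injured and from 5.50 to 6.31 in control libraries, and at 12 hpi from 3.77 to 6.35 and from 4.70 to 6.08. The reporter driver isl2b had between 12.2 and 298 CPM. Ganglion cell markers summed to between 1152 and 4639 CPM in injured and between 1610 and 3959 CPM in control libraries. Rod and cone markers summed to between 161718 and 316743 CPM in injured and between 120798 and 250853 CPM in control libraries, so photoreceptor RNA was abundant in every library. At 24 hpi these sums ran from 290902 to 316743 CPM in injured and from 244683 to 250853 CPM in control libraries. At 6 and 12 hpi their ranges overlapped. Markers of Mueller glia, another retinal cell type, summed to between 3107 and 4550 CPM in injured and between 2760 and 3792 CPM in control libraries. Macrophage and microglia markers summed to between 187 and 770 CPM in injured and between 178 and 680 CPM in control libraries. Of that list mpeg1.1 and csf1ra were at 0 in 15 and 13 of 18 libraries, while cd74a was at 0 in 6 and ptprc in 3. The lysosomal enzyme gene hexb, also on it, was found in every library, at 15.8 to 84.0 CPM. In bulk libraries of this kind, fewer cells of a type and less RNA per cell cannot be told apart.

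The 6 genes spanned a wide range of abundance. Levels of different genes are compared in RPKM, the authors' reads scaled to exon length and library depth. Over all 18 libraries stat5a averaged 4.80 ± 1.87 RPKM, stat3 3.75 ± 2.46, stat5b 1.84 ± 0.679 and stat2 0.650 ± 0.272 RPKM (± SD, n = 18). The other members lay near the detection limit, at a mean of 0.0927 RPKM for stat6 and 0.00225 for stat4.

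The highest members were not separated beyond their spread. Mean RPKM of stat5a was 1.28 times that of stat3, with stat5a ahead in 13 of 18 libraries. Mean RPKM of stat3 was 2.04 times that of stat5b, with stat3 ahead in 13 libraries. From stat5b to stat2, and from stat2 to stat6, the order held in 17 of 18 libraries. The RPKM of stat3 exceeded that of stat5a in 5 libraries: 2 of the injured and 1 of the control libraries at 12 hpi, and 2 of the injured and 0 of the control libraries at 24 hpi.

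**Figure D1:**
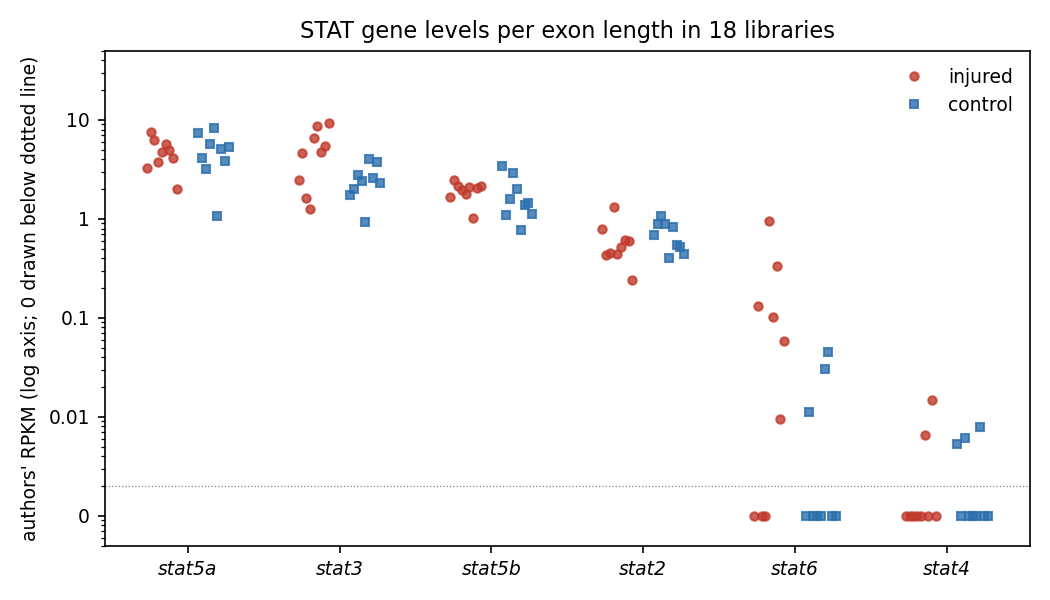
Level of each STAT gene in RPKM (log axis, 0 drawn below the dotted line) in 9 injured libraries (circles) and 9 control libraries (squares), with genes ordered by mean. The means are 4.80 RPKM for stat5a and 3.75 RPKM for stat3, while stat6 and stat4 are at 0 in 9 and 13 of 18 libraries.

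The gene stat3 (ENSDARG00000022712, GRCz11 chromosome 3, 17030665 to 17107445, plus strand) was the STAT gene whose mean was furthest above the controls at 24 hpi among the 4 members described that were counted in every library. At 24 hpi it had 22.4, 26.4 and 43.9 CPM in injured libraries and 11.8, 17.2 and 10.5 CPM in control libraries. All 3 injured libraries lay above all 3 control libraries, a pattern shown by 7.85% of all genes tested. The group means were 30.9 ± 11.5 CPM in injured and 13.1 ± 3.54 CPM in control libraries (± SD, n = 3 each). The log2 fold change was 1.23 with a standard error (SE) of 0.55. It did not pass the threshold of 0.05 in edgeR's quasi-likelihood test after Benjamini-Hochberg adjustment over 17527 genes (adjusted p = 0.556).

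At 12 hpi stat3 had 5.76, 27.8 and 34.2 CPM in injured libraries and 9.61, 4.15 and 16.6 CPM in control libraries. A pair of injured libraries stood above every control library, and injured replicate 1 lay below 2 of the controls. The log2 fold change was 1.16 with an SE of 0.55 (edgeR adjusted p = 1), and it was 0.73 without injured replicate 3 and 1.72 without control replicate 3.

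At 6 hpi stat3 had 11.6, 18.1 and 7.49 CPM in injured libraries and 7.04, 7.88 and 12.2 CPM in control libraries. The groups overlapped, and injured replicate 2 was the highest library. The log2 fold change was 0.46 with an SE of 0.54 (edgeR adjusted p = 0.857). Without that library it was 0.082, and without control replicate 3 it was 0.74.

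The mean effect of injury is the average of the effects at the 3 time points, which need not be alike. For stat3 it was a log2 fold change of 0.95 with an SE of 0.32 and a 95% interval from 0.33 to 1.57, and it missed the threshold (edgeR adjusted p = 0.253). The group means of stat3 were higher in injured libraries at 3 of 3 time points, as were those of 17.1% of genes tested. Whether the effect differed between time points was tested jointly, and for stat3 the edgeR adjusted p was 1.

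Across time within the injured libraries, the mean CPM of stat3 (n = 3 each, ± SD) was 12.4 ± 5.32 at 6 hpi, 22.6 ± 14.9 at 12 hpi and 30.9 ± 11.5 at 24 hpi. The control means were 9.05 ± 2.80, 10.1 ± 6.22 and 13.1 ± 3.54 CPM at 6, 12 and 24 hpi. The log2 difference between 24 and 6 hpi was 1.31 in injured libraries (SE 0.55, edgeR adjusted p = 0.263) and 0.54 in control libraries (SE 0.55, edgeR adjusted p = 0.781). Neither passed the threshold, where 2.01% and 1.84% of all genes did.

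**Figure D2:**
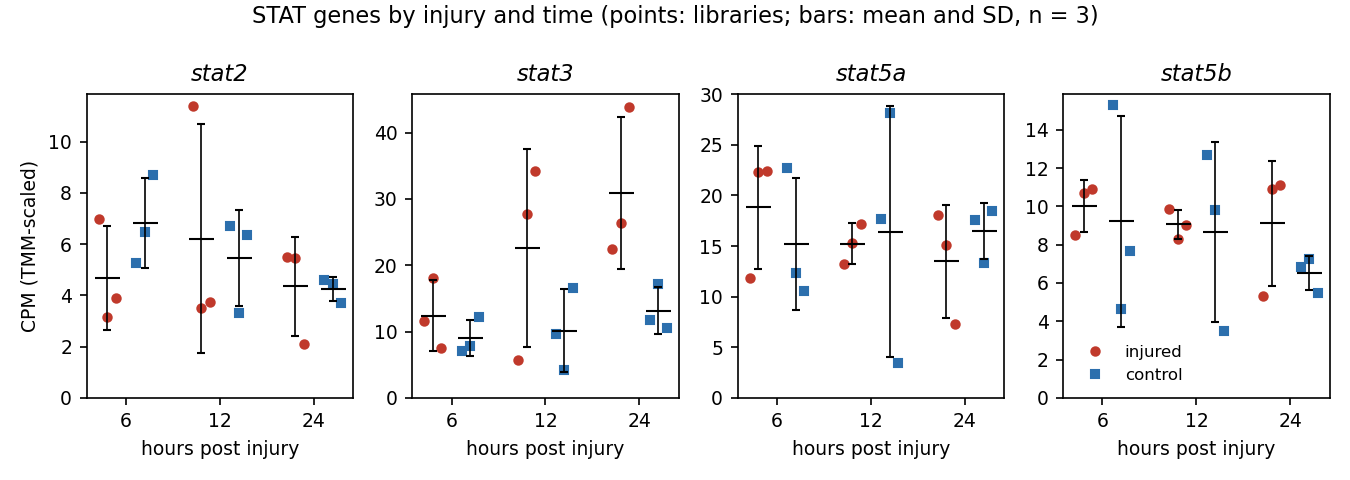
CPM of 4 STAT genes by time point (hours post injury) in injured libraries (circles, left) and control libraries (squares, right), with bars for the mean and SD of 3 libraries; each panel has its own axis from 0. In the stat3 panel the injured means are 12.4, 22.6 and 30.9 CPM at 6, 12 and 24 hpi, and the groups are apart at 24 hpi.

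The authors' deposited table called stat3 at 24 hpi, with a log2 fold change of 1.22 and an adjusted p of 0.00848. It called 0.603%, 0.109% and 2.41% of its genes at 6, 12 and 24 hpi. At 24 hpi, 98 of its 506 called genes were higher in injured libraries. Of the 6 members described, stat3 alone was called. At 6 and 12 hpi the authors' deposited table gave stat3 log2 fold changes of 0.46 and 1.17 with adjusted p of 0.859 and 1. A likelihood-ratio test in edgeR on the 6 libraries of the time point alone, chosen after seeing that call, gave a log2 fold change of 1.22 at 24 hpi (adjusted p = 0.0186) and called 2.86% of genes. The quasi-likelihood test on the same 6 libraries gave an adjusted p of 0.162 for stat3. Over 28 alternative settings the log2 fold change at 24 hpi stayed between 0.82 and 2.22, and 2 of them called stat3: that likelihood-ratio test, and the fit with the ganglion cell score described next.

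The column headers give each library a sample number, and some numbers occur more than once. Sets of 14 and 4 libraries, called sheet sets here, were inferred from this. Whether they are batches is not given in the sources used here. Within the larger set, which holds 2 injured and 2 control libraries at 24 hpi, the log2 fold change of stat3 at 24 hpi was 0.82 (edgeR adjusted p = 0.903). The smaller set holds the highest injured library of stat3, replicate 3, and 1 control library at that time. With the set as a covariate the log2 fold change was 1.16 (edgeR adjusted p = 0.583).

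The level of stat3 was also read against cell type markers. The Pearson correlation of log2 stat3 CPM with the ganglion cell score was 0.14 at 6 hpi, 0.78 at 12 hpi and -0.51 at 24 hpi (6 libraries each), and 0.30 over all 18. With the log2 summed CPM of macrophage and microglia markers it was 0.54, 0.61 and -0.01 at 6, 12 and 24 hpi, and 0.46 over all 18. With the log2 summed CPM of rod and cone markers it was 0.12, -0.49 and 0.75 at 6, 12 and 24 hpi, and 0.19 over all 18. For Mueller glia markers, summed in the same way, it was 0.59, -0.14 and 0.33 at 6, 12 and 24 hpi, and -0.03 over all 18. These are descriptions across libraries that share depth and composition, and the part of any of these cell types in the level of stat3 was not tested. The lowest injured level, 5.76 CPM at 12 hpi, was in the library with the lowest score, 3.77. The lowest control level, 4.15 CPM at 12 hpi, was in the control library with the lowest score, 4.70. At 24 hpi the 3 injured libraries had both the higher stat3 levels and the lower scores.

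With the score as a covariate, an alternative chosen after seeing this, the log2 fold changes of stat3 were 1.31 at 6 hpi (SE 0.36, edgeR adjusted p = 0.5), 1.26 at 12 hpi (SE 0.33, adjusted p = 0.872) and 2.22 at 24 hpi (SE 0.37, adjusted p = 0.019). The mean over the 3 time points was 1.59 (SE 0.22, edgeR adjusted p = 0.00389), where 0.126% of genes passed, and at 24 hpi 0.251% did. When each of the 18 libraries was left out of this fit in turn, the mean effect passed in 18 of 18 fits, with adjusted p from 0.00206 to 0.0272. The 24 hpi effect passed in 15 of 18. Most of these fits left out a 6 or 12 hpi library, which enters the 24 hpi effect only indirectly. The call was lost without injured 24 hpi replicate 3 (adjusted p = 0.102), control 24 hpi replicate 1 (0.0879) or control 24 hpi replicate 3 (0.105). The log2 fold changes were then 2.22, 2.17 and 2.14. With log2 CPM of isl2b alone as the covariate the effects were 2.24 at 24 hpi (edgeR adjusted p = 0.0296) and 1.54 for the mean (0.0164). The gene isl2b is itself a marker in the score, so this fit is no separate check. At 24 hpi isl2b had 39.6 to 101 CPM in injured and 224 to 291 CPM in control libraries. The score itself was lower in every injured library than in every control library at 24 hpi, so the covariate is not independent of injury there. At 6 hpi the score ranges overlapped, but 1 of 26 ganglion cell markers had a log2 fold change above 0, with a median of -0.83. The covariate is thus not independent of injury at 6 hpi either, and both times enter the mean effect. The part of the covariate in the result was not tested.

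**Figure D3:**
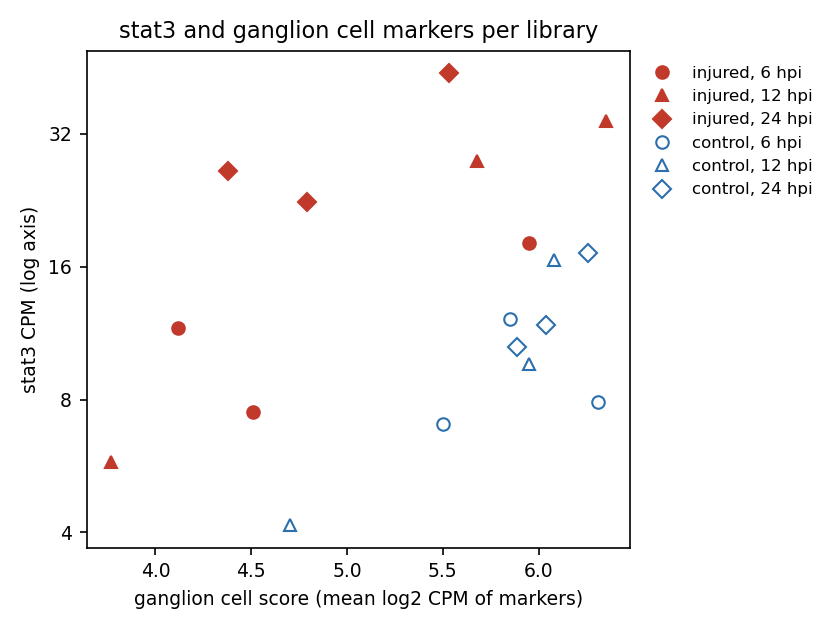
CPM of stat3 (log axis) against the ganglion cell score of each library, for injured libraries (filled) and control libraries (open) at 6 hpi (circles), 12 hpi (triangles) and 24 hpi (diamonds). The 3 injured libraries of 24 hpi, at 22.4, 26.4 and 43.9 CPM, lie above the control libraries of 24 hpi and to the left of them.

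The gene stat2 (ENSDARG00000031647, GRCz11 chromosome 6, 39123544 to 39160422, minus strand) encodes a subunit of the complex that carries interferon signals to the nucleus. At 6 hpi it had 7.0, 3.14 and 3.89 CPM in injured libraries and 5.27, 6.46 and 8.72 CPM in control libraries. At 12 hpi it had 11.4, 3.50 and 3.76 CPM in injured libraries and 6.71, 3.31 and 6.34 CPM in control libraries. At 24 hpi it had 5.49, 5.46 and 2.10 CPM in injured libraries and 4.61, 4.44 and 3.72 CPM in control libraries. Groups overlapped at every time point, and injured 12 hpi replicate 1 was the highest library. The log2 fold changes were -0.54, 0.19 and 0.032 with SEs of 0.50 (edgeR adjusted p = 0.791, 1 and 0.996). The 95% interval of its mean effect ran from -0.67 to 0.45.

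The pair stat5a (ENSDARG00000019392, GRCz11 chromosome 3, 17251542 to 17331919, plus strand) and stat5b (ENSDARG00000055588, GRCz11 chromosome 12, 13560082 to 13650472, minus strand) encodes the STAT5 proteins. Since they are paralogs, reads they share may have been split between them. At 24 hpi stat5a had 18.1, 15.1 and 7.28 CPM in injured libraries and 17.6, 13.3 and 18.5 CPM in control libraries. At 12 hpi it had 13.2, 15.3 and 17.2 CPM in injured libraries and 17.7, 28.1 and 3.41 CPM in control libraries, so that the control libraries held both the highest and the lowest level of the 18.

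At 6 hpi stat5a had 11.8, 22.3 and 22.4 CPM in injured libraries and 22.7, 12.3 and 10.6 CPM in control libraries. Its groups overlapped at every time point. The log2 fold changes were 0.31, -0.11 and -0.29 at 6, 12 and 24 hpi with SEs of 0.51, 0.51 and 0.52 (edgeR adjusted p = 0.912, 1 and 0.946). The 95% interval of the mean effect of stat5a ran from -0.61 to 0.55 on the log2 scale.

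For stat5b the levels at 24 hpi were 1.02, 2.05 and 2.16 RPKM in injured libraries and 1.37, 1.45 and 1.11 RPKM in control libraries. The injured libraries held both the lowest and the highest of the 6 values. On the CPM scale, at 6 hpi stat5b had 8.48 to 10.9 CPM in injured and 4.64 to 15.3 CPM in control libraries, and at 12 hpi 8.29 to 9.84 and 3.47 to 12.7 CPM, so the control range enclosed the injured range at both. The log2 fold changes were 0.12, 0.061 and 0.48 at 6, 12 and 24 hpi, each with an SE of 0.44 (edgeR adjusted p = 0.973, 1 and 0.849). The 95% interval of the mean effect ran from -0.28 to 0.72.

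Across the 12 libraries of 6 and 12 hpi, stat5a and stat5b had a Pearson correlation of 0.83 in log2 CPM, and across the 6 libraries of 24 hpi it was -0.74. Read sharing between the paralogs and common depth bear on this value and were not tested. The gene stat3 is the neighbour of stat5a on chromosome 3. A stretch of 144096 bases with 0 genes of the tables wholly inside it separates stat3 from stat5a, and the correlation of stat3 with stat5a was -0.36 over 18 libraries and -0.80 over the 6 libraries of 24 hpi. In RPKM, the ratio of stat3 to stat5a at 24 hpi ran from 0.947 to 4.62 in injured and from 0.432 to 0.990 in control libraries, which overlap.

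The gene stat6 (ENSDARG00000015902, GRCz11 chromosome 23, 27078866 to 27123180, minus strand) was found at low counts in 9 of 18 libraries, 6 of them injured and 3 control. At 6 hpi it had 0, 15 and 0 counts in injured libraries, against 0, 1 and 0 in control libraries. At 12 hpi it had 0, 96 and 8 counts in injured libraries, against 0, 0 and 2 in control libraries. At 24 hpi the counts were 34, 1 and 6 in injured libraries, against 3, 0 and 0 in control libraries. Of the 166 counts, 96.4% were in injured libraries and 57.8% in a single one, injured 12 hpi replicate 2. The floor of 3 counts corresponds to between 0.0961 and 0.195 CPM per library, and covers counting error only.

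The mean effect of injury on stat6 had an edgeR adjusted p of 0.264, and the effects at 6, 12 and 24 hpi had 0.718, 1 and 0.752. Its fitted fold changes are no bound, since libraries are at 0, and are not read here. The authors' deposited table listed stat6 at 12 hpi with an adjusted p of 0.597. Injured 12 hpi replicate 2 was also the library with the highest summed macrophage and microglia markers, 770 CPM, with 8.02 CPM of mpeg1.1 and 9.11 CPM of coro1a. Injured 24 hpi replicate 1, with 34 counts of stat6, had 557 CPM of these markers. Injured 6 hpi replicate 2, with 15 counts, had 335 CPM. Each sum was the highest of its group. In injured 24 hpi replicate 1, however, mpeg1.1 and coro1a were at 0, and so were 16 of the 24 listed markers in all. In injured 6 hpi replicate 2, mpeg1.1 was at 0, coro1a was at 2.02 CPM and 6 markers were at 0. Control 12 hpi replicate 2 had 19 markers at 0 and still a sum of 212 CPM. Control 12 hpi replicate 3 had 2 counts with 217 CPM, while control 12 hpi replicate 1 had 0 counts with 262 CPM. Control 24 hpi replicate 1, with 680 CPM of these markers and 26.0 CPM of mpeg1.1, had 3 counts of stat6. The part of these cells in the stat6 counts was not tested.

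The gene stat4 (ENSDARG00000028731, GRCz11 chromosome 9, 41156287 to 41208343, plus strand) serves as the interleukin-12 STAT in mammals, and overlaps wdr75 on the opposite strand. It had 7 counts in all, 4 of them in injured and 3 in control libraries, and was at 0 in 13 of 18. A library had at most 3 counts. Whether counting used the strand is not given in the sources used here, so its counts cannot be assigned with certainty, and stat4 was not tested.

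Of the 6 members described, 5 passed the filter on low counts: stat2, stat3, stat5a, stat5b and stat6. At an adjusted p under 0.05, edgeR called 0 of them at 6, 12 and 24 hpi and for the mean effect, where 0% of all 17527 genes were called in each comparison. DESeq2 called 0 of them as well, while it called 0.451%, 0.0399% and 1.08% of genes at 6, 12 and 24 hpi and 1.29% for the mean. At an unadjusted p under 0.05 the members higher in injured libraries were 0 at 6 hpi, 1 at 12 hpi (stat3), 1 at 24 hpi (stat3) and 2 for the mean effect (stat3 and stat6), and 0 were lower in each. The background at that threshold was 5.2%, 1.9%, 3.39% and 6.4% of genes higher, and 4.07%, 1.74%, 5.09% and 6.16% lower, in injured libraries. The filter's minimum count of 10 was reached for stat6 only in injured libraries, so its place among the higher members is partly built in. The median log2 fold change of the 5 tested members was 0.31, 0.19 and 0.48 at 6, 12 and 24 hpi, against -0.018, 0.0010 and 0.015 over all genes. These medians count stat6, whose fitted values are not read, so they are not read as a shift of the family. For the difference of effects between time points, 0 members were called, where 0% of genes were called. Over time 0 members were called in control libraries, where 1.54% of genes were, and 0 in injured libraries, where 1.53% were.

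**Figure D4:**
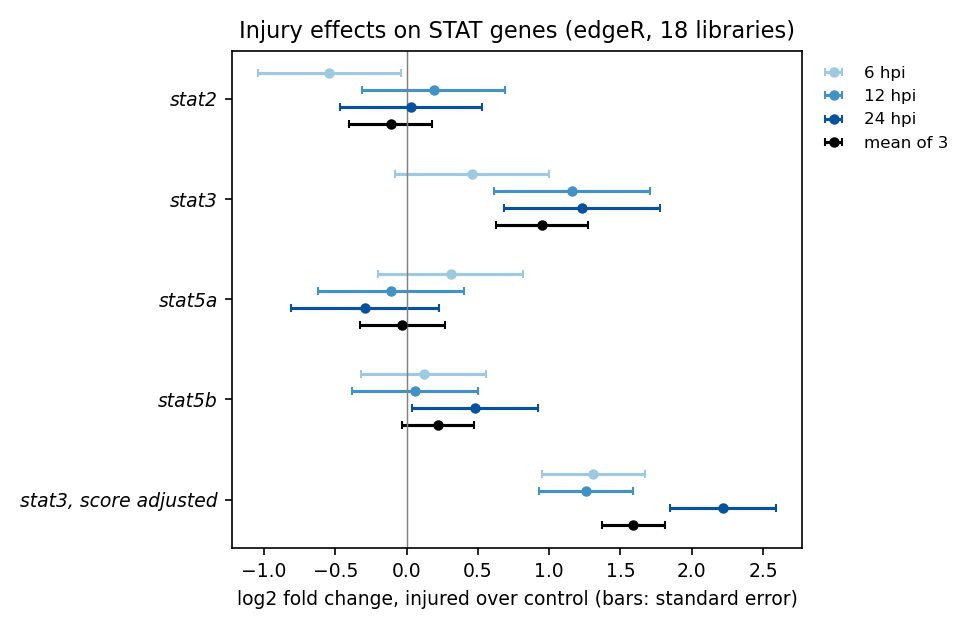
Log2 fold change of injured over control libraries, with bars for the SE, for 4 STAT genes at 6, 12 and 24 hpi and for the mean of the 3, from edgeR on 18 libraries; the bottom row repeats stat3 with the ganglion cell score as a covariate. The mean effect is 0.95 for stat3 and 1.59 with the covariate, and it lies between -0.11 and 0.22 for the other 3 genes.

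Other genes of the pathway were read from lists of ligands, receptors, kinases, inhibitors and targets. Of 29 listed cytokine ligands 27 were in the tables and 9 were tested. At an unadjusted p under 0.05, 0 of the 9 were higher and 0 lower for the mean effect, with a median log2 fold change of -0.12. Over all genes tested 6.4% were higher and 6.16% lower at that threshold for the mean effect, which is the background for each of these lists. Of 33 listed receptors 20 were tested, of which 2 were higher and 1 lower for the mean effect, with a median of 0.28 against -0.0043 over all genes. None was called after adjustment by edgeR, which called 0% of all genes tested at each time point and for the mean effect. Most genes named below were picked by an unadjusted p under 0.05, so separated groups are partly built in. At 24 hpi, 7.85% of all genes tested had all injured libraries above all control libraries.

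The leptin receptor gene lepr, whose mammalian counterpart signals through STAT3, averaged 22.9 ± 10.5 CPM in injured and 5.30 ± 0.969 CPM in control libraries at 24 hpi (± SD, n = 3 each). All 3 injured libraries were higher, and the log2 fold change was 2.11 with an SE of 0.64 (edgeR adjusted p = 0.298). At 6 and 12 hpi its groups overlapped, with means of 2.58 and 7.53 CPM in injured and 4.03 and 3.23 CPM in control libraries. The gene il10rb, for a receptor chain of interleukin-10 and related cytokines, averaged 51.7 ± 6.52 CPM in injured and 36.9 ± 4.58 CPM in control libraries at 12 hpi (log2 fold change 0.49, edgeR adjusted p = 1). Its log2 fold changes at 6 and 24 hpi were 0.19 and 0.27. The prolactin receptor gene prlra averaged 84.1 ± 10.7 CPM in injured and 125 ± 31.3 CPM in control libraries at 12 hpi (log2 fold change -0.58, edgeR adjusted p = 1). At 6 and 24 hpi the groups of prlra overlapped (log2 fold change -0.27 and -0.16). The gene il6st, for the signal-transducing subunit shared by receptors of the interleukin-6 family, had 11.9, 12.4 and 28.9 CPM in injured and 10.8, 8.50 and 10.8 CPM in control libraries at 24 hpi (log2 fold change 0.82, edgeR adjusted p = 0.596).

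Among the Janus kinases 4 of 5 were tested. At 24 hpi 1, jak1, had an unadjusted p under 0.05, where 3.39% of all genes were higher and 5.09% lower. The kinase gene jak1 averaged 63.2 ± 7.25 CPM in injured and 32.0 ± 0.345 CPM in control libraries at 24 hpi (± SD, n = 3 each), with a log2 fold change of 0.98 (SE 0.18, edgeR adjusted p = 0.105). At 6 hpi its means were 65.3 ± 3.53 CPM in injured and 76.2 ± 10.8 CPM in control libraries, so the injured level at 24 hpi was close to that at 6 hpi while the control level at 24 hpi was the lowest of the 6 groups.

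The inhibitors of the pathway were the SOCS, PIAS and phosphatase genes, 15 of 19 tested. Of these edgeR called 0, where it called 0% of all genes. For the mean effect 2 were higher and 1 lower at an unadjusted p under 0.05, where 6.4% and 6.16% of all genes were. The feedback inhibitor gene socs3b averaged 24.2 ± 15.4 CPM in injured and 8.38 ± 2.89 CPM in control libraries at 24 hpi, with 3 of 3 injured libraries higher (log2 fold change 1.52, SE 0.48, edgeR adjusted p = 0.349). Its paralog socs3a, for which reads may be shared, averaged 8.71 ± 3.79 CPM in injured and 2.49 ± 1.88 CPM in control libraries at 24 hpi (log2 fold change 1.82, edgeR adjusted p = 0.475). At 6 hpi socs3a averaged 4.45 ± 3.11 CPM in injured and 1.29 ± 0.721 CPM in control libraries, while socs3b averaged 4.21 ± 2.20 CPM in injured and 4.78 ± 0.535 CPM in control libraries. At 12 hpi the groups overlapped for both, with log2 fold changes of 0.16 for socs3a and 1.07 for socs3b.

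Targets and partners of STAT3 mostly had mean effects above 0, and none was called, where edgeR called 0% of all genes. Of 25 tested, 22 (88%) had a mean effect above 0, against 49.5% of all genes. At an unadjusted p under 0.05, 7 were higher and 0 lower, where 6.4% and 6.16% of all genes were. The median log2 fold change was 0.42 against -0.0043 over all genes. The list was chosen with earlier results of these data known, so these counts are a description and no test of STAT3 activity. Rod and cone markers had mean effects above 0 in 31 of 34, and ganglion cell markers in 4 of 26, and the part of cell content in the counts of this list was not tested. The transcription factor gene atf3 averaged 523 ± 293 CPM in injured and 155 ± 25.9 CPM in control libraries at 24 hpi. Its log2 fold changes were 1.24, 1.18 and 1.75 at 6, 12 and 24 hpi (mean 1.39, SE 0.22, edgeR adjusted p = 0.0551). The gene jun, for a subunit of the AP-1 factor, had a mean log2 fold change of 0.51 and junba, for a related subunit, 1.09 (edgeR adjusted p = 0.167 and 0.217). Of 9 tested targets of STAT5 and STAT6, 0 were higher and 0 lower for the mean effect, with a median of 0.02.

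Interferon response genes, among them targets of STAT2, lay on both sides. Of 17 tested, 2 were higher and 2 lower for the mean effect at an unadjusted p under 0.05, where 6.4% and 6.16% of all genes were. The median was 0.20 and 0 were called, where edgeR called 0% of all genes. The gene irf9, for the DNA-binding partner of STAT2, had 46.1, 42.7 and 98.8 CPM in injured libraries and 16.8, 30.3 and 23.1 CPM in control libraries at 24 hpi. All 3 injured libraries were higher (log2 fold change 1.42, SE 0.46, edgeR adjusted p = 0.369). At 6 and 12 hpi the groups of irf9 overlapped, with means of 19.3 and 39.0 CPM in injured and 23.4 and 23.1 CPM in control libraries. The gene irf7, an inducer of interferon genes, averaged 1.19 ± 0.642 CPM in injured and 5.45 ± 2.90 CPM in control libraries at 24 hpi (log2 fold change -2.18, edgeR adjusted p = 0.38). Its groups overlapped at 6 and 12 hpi, with a log2 fold change of -0.53 at each. Another listed gene, irf1b, averaged 12.7 ± 4.03 CPM in injured and 4.69 ± 1.27 CPM in control libraries at 24 hpi (log2 fold change 1.44, edgeR adjusted p = 0.576). Its groups overlapped at 6 and 12 hpi, with log2 fold changes of -1.47 and 0.97. The antiviral gene rsad2 was at 0 in 17 of 18 libraries, mxa in 12 and isg15 in 8. The highest level of isg15 was 5.61 CPM, in injured 12 hpi replicate 2.

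**Figure D5:**
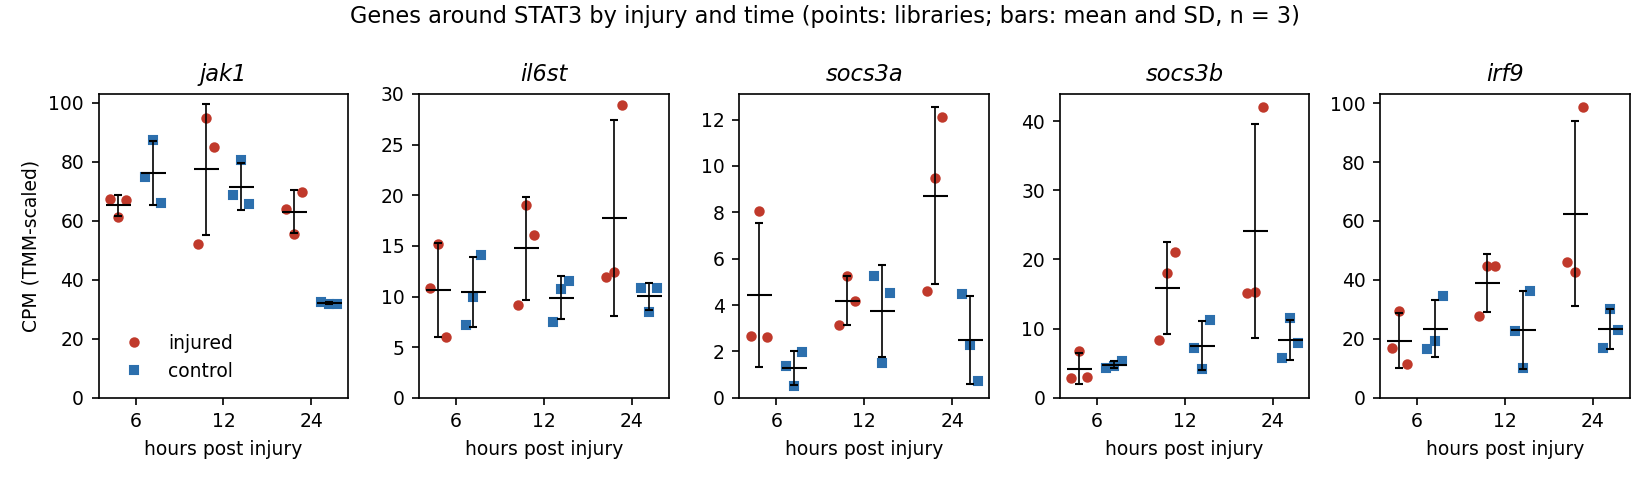
CPM of jak1, il6st, socs3a, socs3b and irf9 by time point (hours post injury) in injured libraries (circles, left) and control libraries (squares, right), with bars for the mean and SD of 3 libraries; each panel has its own axis from 0. At 24 hpi injured libraries lie above control libraries in all 5 panels, a pattern shown by 7.85% of all genes tested. The genes were chosen with earlier results of these data known, so this separation is partly built in. For socs3a the lowest injured library has 4.61 CPM and the highest control library 4.48 CPM. In jak1 the control mean is 32.0 CPM at 24 hpi, against 76.2 CPM at 6 hpi.

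The genes most like each member were ranked by the Pearson correlation of log2 CPM over the 18 libraries among 8131 genes with a symbol and an average log2 CPM of at least 3. For stat3 the nearest were irf9 (0.87), stmn4l (0.86) and adcyap1b (0.85), and the same 3 came first by Spearman correlation. Within groups, after removal of each group's mean, these correlations were 0.83, 0.89 and 0.89. The correlation of stat3 with irf9 was 0.74, 0.88 and 0.96 at 6, 12 and 24 hpi, with 6 libraries each. For stat2 the nearest was clybl (0.74), for stat5a supt20 (0.86) and for stat5b dhx29 (0.80). Of the 3 nearest genes, Spearman correlation kept 1 for stat2, 0 for stat5a and 0 for stat5b. The nearest genes were picked for high correlation over the same 18 libraries. High Spearman, within-group and per-time values are therefore partly built in. These are descriptions over libraries that share depth and cell content.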

How the data were processed

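Sorted cells were lysed, cDNA was amplified from polyadenylated RNA with a SMART-Seq low-input kit and libraries were made with Nextera XT, per the labels' protocols. The authors deposited a table per time point with counts of reads per gene, RPKM (scaled to exon length and depth, per the file headers; the read total used is not given in the sources used here). The authors also deposited log2 fold changes with p-values and FDR-adjusted p-values, per the file headers, from a model not given in the sources used here. The submitters' processing notes name GRCz11; aligner, counter and strand setting are not given in the sources used here. One library, injured 6 hpi replicate 1, is marked as trimmed in the headers. Unmapped per-sample count columns numbered 0. Chi-square per gene between libraries of the same group was 27.7 to 124 over 18 pairs, above counting noise. The labels do not say that replicates are separate fish, so p-values measure the spread between these samples, which may be technical. Amplified reads carry no molecular identifiers, so intervals and floors from counts cover counting error only.

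Software was edgeR 4.0.16, DESeq2 1.42.0 and limma 3.58.1 under R 4.3.3. The main test was edgeR's quasi-likelihood test with TMM factors and 6 group means over 18 libraries, on 17527 genes passing filterByExpr (minimum count 10). Benjamini-Hochberg adjustment ran over all of them, with a threshold of 0.05. The biological coefficient of variation was 0.517. Standard errors are the absolute log2 fold change over the root of the F statistic. The 95% intervals of log2 fold changes use these standard errors with the normal distribution. They are therefore somewhat narrower than the F test would give. CPM were computed from the counts with TMM factors; SD are over libraries. Correlations used log2 CPM with a prior count of 2. Fits were checked on simulated counts. Alternatives were other scaling, DESeq2, no filter, fewer libraries, a replicate block, the sample sheet set, and each library left out; the likelihood-ratio test and the ganglion cell covariates were added after seeing the data.

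Of the 8 members, 6 are named and 2 are not reported here. Of the pathway and marker lists, up to 4 genes per list qualified. These had an average log2 CPM no lower than 1 and an unadjusted p under 0.05 at 24 hpi or for the mean effect. The genes jak1, il6st, socs3a and socs3b were named in every case. The genes mpeg1.1, csf1ra, ptprc, coro1a, isl2b, isg15, rsad2 and mxa were named after their values were seen. Members and lists were chosen with earlier results of these data known. A search of promoters for STAT motifs was planned and not run, since no sequences were used here.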

Additional observations from a re-analysis of the deposited data

How the results depend on the processing

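The count of the 5 tested STAT genes past the threshold, 0 in edgeR at each time point and for the mean effect, was also 0 in DESeq2. It was 1 (stat3) in the likelihood-ratio test at 24 hpi, and 1 (stat3) with the ganglion cell score as a covariate at 24 hpi and for the mean. The direction of stat3 was kept in every setting run. Where values below changed, the cause was not tested.

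Over all genes edgeR called 0 at 6, 12 and 24 hpi, for the mean effect and for the difference between time points, with 1626, 638, 1486, 2201 and 877 genes at an unadjusted p under 0.05. DESeq2 called 79, 7, 189, 226 and 13 genes in these 5 comparisons. The likelihood-ratio test called 86, 17 and 442 genes at 6, 12 and 24 hpi. With only the libraries compared, 6 genes were called at 6 hpi and 50 at 24 hpi. With no filter on low counts, 2 were called at 24 hpi and 2 for the mean. With the ganglion cell score, 44 were called at 24 hpi and 22 for the mean. Leaving out 1 library gave 0 to 1 genes at 6 hpi, 0 to 7 at 24 hpi (7 without injured 12 hpi replicate 1) and 0 to 14 for the mean (14 without injured 6 hpi replicate 2).

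Over time, 270 genes were called in control libraries, 733 by DESeq2, 459 with the score, 96 in the larger sheet set, and 128 to 327 with 1 library left out (128 without control 24 hpi replicate 2). In injured libraries 269 were called, 767 by DESeq2, 107 with only the libraries compared, 473 with the score, 104 in the larger sheet set, and 127 to 338 with 1 left out (127 without injured 24 hpi replicate 2).

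The signs of the small effects of stat2, stat5a and stat5b depended on settings. With library size only, the log2 fold change was -0.053 for stat5b at 6 hpi and -0.097 for stat2 at 24 hpi. With a term for the sheet set it was -0.053 for stat5a and -0.0015 for stat5b at 6 hpi and -0.00089 for stat2 at 24 hpi. In the larger sheet set it was -0.27 for stat5a and -0.61 for stat5b at 6 hpi, 0.063 for stat5a at 24 hpi, and 0.15 and -0.065 for the means of stat2 and stat5b. At 6 hpi the larger set holds every injured library but only replicate 1 of the control libraries. Sheet set and injury are therefore partly mixed at 6 hpi, which bears on the term for the set and on the means too. With the score the log2 fold change was -0.24 for stat2 at 12 hpi and -0.59 at 24 hpi.

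With 1 library left out, log2 fold changes ranged at 6 hpi from -0.19 to 0.70 for stat5b. The fitted value of stat6 at 6 hpi, which is no bound since 2 of 3 libraries of each group are at 0, ranged from -1.79 to 4.94 and is not read. At 12 hpi log2 fold changes ranged from -0.59 to 0.48 for stat2, -0.58 to 0.53 for stat5a and -0.31 to 0.45 for stat5b. At 24 hpi they ranged from -0.17 to 0.37 for stat2 and -0.56 to 0.012 for stat5a. Mean effects ranged from -0.37 to 0.0045 for stat2 and from -0.19 to 0.18 for stat5a.

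Pairing was read from log2 CPM after removal of each group's mean, over genes with an average log2 CPM of at least 3. On these deviations, same-numbered libraries correlated over 0.1 in 3 of 3 pairs at 6 hpi (0.17 to 0.386, each best with its own number). The same held in 1 of 3 pairs at 12 hpi for a correlation over 0.1, and in 0 of 3 at 24 hpi. The numbers were therefore not taken to pair the samples over the study, and pairing at 6 hpi cannot be told from these values. At 6 hpi the replicate block called 0 genes, and stat3 was at 0.42 (edgeR adjusted p = 0.884). With the replicate block, 1 gene was called at 12 hpi and 1 for the difference between time points. With the block stat3 was at 1.20 at 24 hpi (edgeR adjusted p = 0.64) and 0.88 for the mean (adjusted p = 0.334). In the same replicate block, stat5a was at 0.24 at 12 hpi and 0.075 for the mean, and stat2 at -0.082 at 24 hpi.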
